A study of Bos grunniens and Bos grunniens x Bos taurus with 6 samples.

Results

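The mitochondrial ribosomal proteins are the gene products that, with ribosomal RNA made inside the organelle, form the ribosome of mitochondria. Their genes were taken here as every symbol of the deposited table that begins with MRPL or MRPS and a number. Each symbol was represented by the gene identifier with most of its reads, with all transcripts of that identifier summed. The rule found 75 genes of 31044 in the table, 47 with large subunit symbols (MRPL) and 28 with small subunit symbols (MRPS). Of these, 73 had at least 30 reads over the 6 libraries together and were tested, 46 large and 27 small. MRPL40 had the fewest reads of those tested, 70, and MRPL57 with 10 reads and MRPS2 with 1 read were below the minimum. All 73 passed the filter on low counts of the gene test.

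The muscle was longissimus dorsi, which runs along the spine. The groups were yak (Bos grunniens, 3 samples) and cattle-yak, the hybrid of yak and cattle (labelled as a cross of Bos grunniens and Bos taurus, 3 samples), each read as full-length cDNA by nanopore sequencing. The sources used here do not give age, sex, treatment or the direction of the cross. They also do not say whether each sample is a separate animal, and p-values therefore reflect only how these samples vary, part of which may be technical.

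Mitochondrial ribosomes translate the few messenger RNAs of mitochondrial DNA, which encode core subunits of the respiratory chain and ATP synthase. Their proteins, in contrast, are encoded in the nucleus, made in the cytosol and imported. Some are descended from proteins of bacterial ribosomes and others exist only in mitochondria, and skeletal muscle, with its high demand for respiration, depends on both.

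The libraries held 2350851 to 2769106 counted reads. The member genes drew 78537 reads together, with a median of 870 reads per tested gene and a range of 70 to 4690. Myofibre markers were abundant in every library, the 8 of them summing to 180830 to 262490 CPM (read counts on a common library size, unless stated set by edgeR's trimmed mean of M values, TMM). Those markers summed to 227640 to 262490 CPM in yak and 180830 to 209720 CPM in cattle-yak, and 2 of them rose (TTN and DES) while 2 fell (ACTA1 and MYH2). The name ACTA1 rests on 1.57% of the reads of its gene identifier, which averaged 113200 CPM in yak and 71952 CPM in cattle-yak. The share of reads with the symbol was 53.8% for MYH2, 44.3% for MYH7, 61.2% for DES and 88.2% for TTN. The 6 fibroblast markers summed to 426 to 538 CPM in yak and 221 to 425 CPM in cattle-yak, and 3 of the 5 tested fell. The 6 macrophage markers summed to 14.8 to 25.2 CPM in yak and 35.3 to 76.0 CPM in cattle-yak, and CTSS, the only one tested, rose. The endothelial markers, 2 of 6 tested (24.8 to 33.0 CPM in the yak libraries and 30.6 to 63.0 CPM in the others) and the smooth muscle markers (140 to 172 CPM and 134 to 178 CPM) had no called member. VWF, an endothelial marker with too few reads to be tested, was at 1.30, 1.28 and 0 CPM in yak and 3.49, 10.2 and 6.48 CPM in cattle-yak. Of the adipocyte markers ADIPOQ, PLIN1 and LEP were not matched, and the other 2 summed to 13.9 to 20.8 CPM and 1.94 to 17.3 CPM. The part of these cell types in the results below was not tested. In bulk muscle, fewer cells of a type and less RNA per cell cannot be told apart.

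Of the 73 tested genes, 6 fell in cattle-yak, none rose and 67 did not pass (edgeR quasi-likelihood test, Benjamini-Hochberg adjusted p under 0.05 over all genes tested). Among all 7504 genes tested 12.6% were called, 6.18% as lower and 6.45% as higher, against 8.22% of the mitochondrial ribosomal protein genes. At an unadjusted p under 0.05, 16 of the 73 genes (21.9%) passed, against 27.9% of all genes. Counted in either direction, the share of called members was therefore not above the background. Counted as lower alone, 8.22% of the members stood against 6.18% of all genes, a difference that was not tested. The 6 genes that fell were MRPS28, MRPL28, MRPL12, MRPL34, MRPS36 and MRPL45. Single libraries weighed on this count: leaving out yak 3 left 1 gene, cattle-yak 2 left 2, yak 1 and yak 2 left 3 each, cattle-yak 3 gave 5 and cattle-yak 1 gave 7.

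Fold changes of the members were small and most lay below 0. The median log2 fold change, cattle-yak against yak, was -0.24, against 0.02 over all genes tested. The middle of the members ran from -0.35 to 0.03 (quartiles), and the extremes were -0.85 for MRPS28 and 0.68 for MRPL41. A value below 0 was found in 51 of the 73 members (69.9%), against 48.1% of all genes. The 3 yak and 3 cattle-yak levels did not overlap in 22 members that were lower in cattle-yak (30.1%, against 16.1% of all genes) and in 4 that were higher (5.48%, against 16.9% of all genes). Beside the 6 that fell, the lower ones were MRPL3, MRPL9, MRPL10, MRPL11, MRPL14, MRPL19, MRPL27, MRPL30, MRPL43, MRPL48, MRPS7, MRPS9, MRPS12, MRPS18B, MRPS25 and MRPS33. These 16 did not pass (edgeR adjusted p from 0.053 to 0.413), with log2 fold changes from -0.66 to -0.25. Scaling by library size alone moved the median of all genes from 0.02 to 0.17 and that of the members to -0.09, so their distance stayed at -0.27. The distance was -0.60 with no filter on low counts and -0.0059 with reference transcripts only. Without cattle-yak 2 the members' median was -0.12, at a distance of -0.13 from that of all genes.

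**Figure D1:**
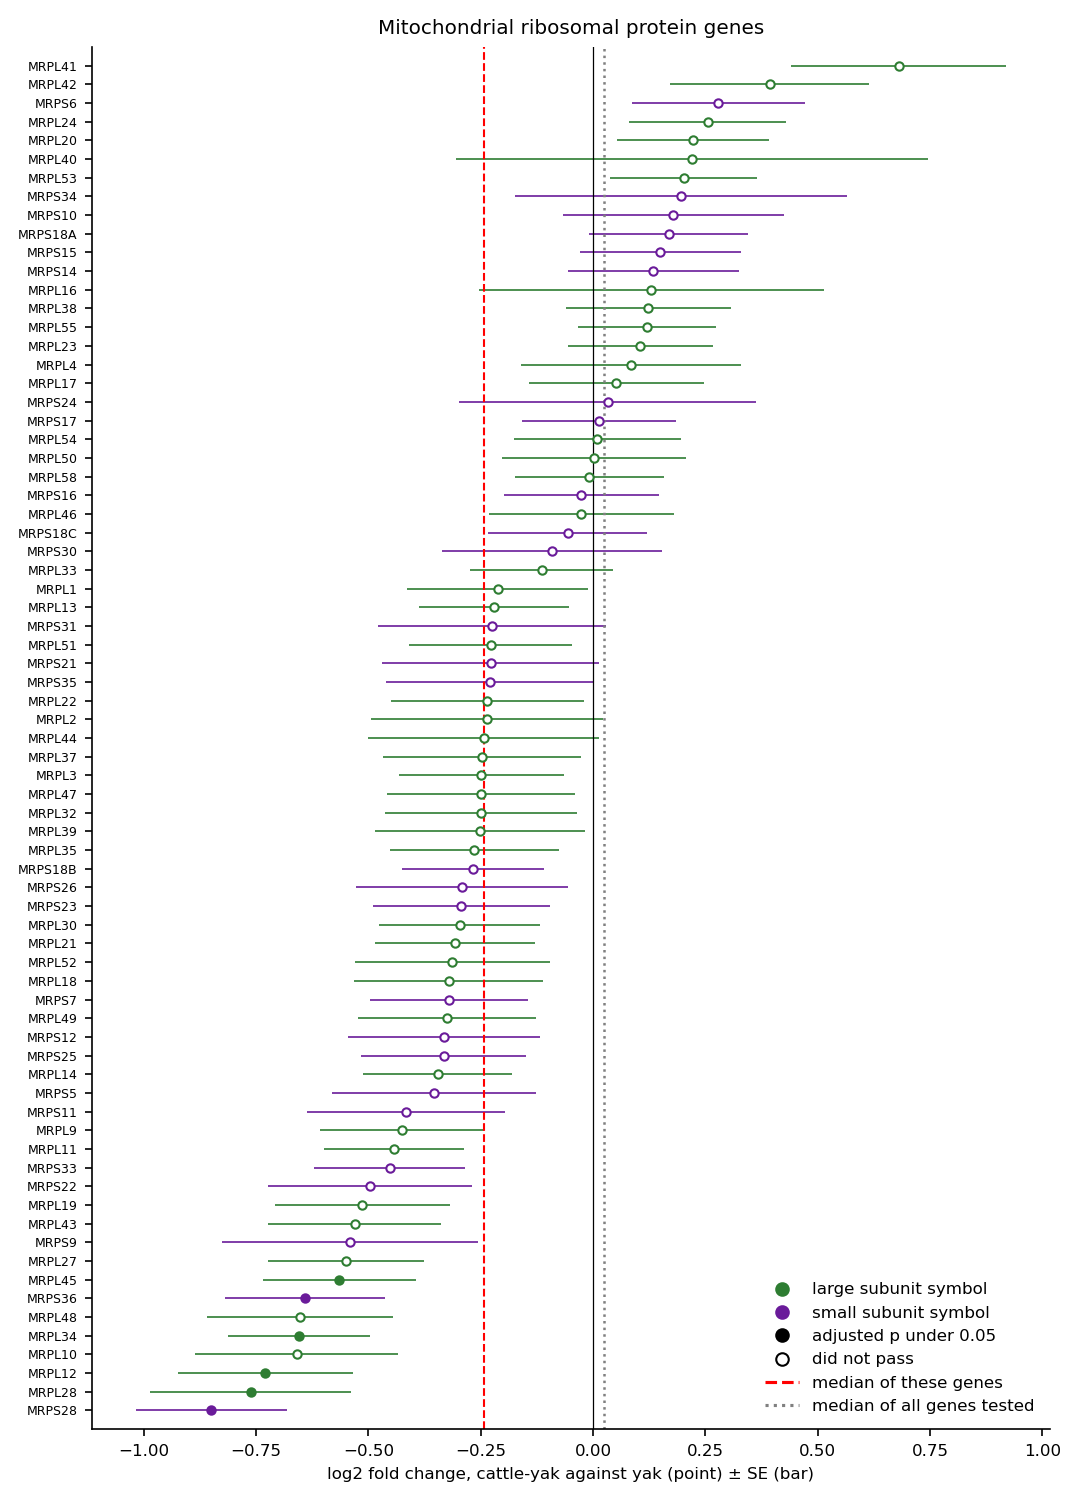
Log2 fold change of cattle-yak against yak (x axis, bars are SE) for the 73 tested mitochondrial ribosomal protein genes, sorted, coloured by the subunit in the symbol and filled where the adjusted p was under 0.05. The 6 filled points are all below 0, and the dashed median of -0.24 lies left of the dotted median of all genes tested, 0.02.

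**Figure D2:**
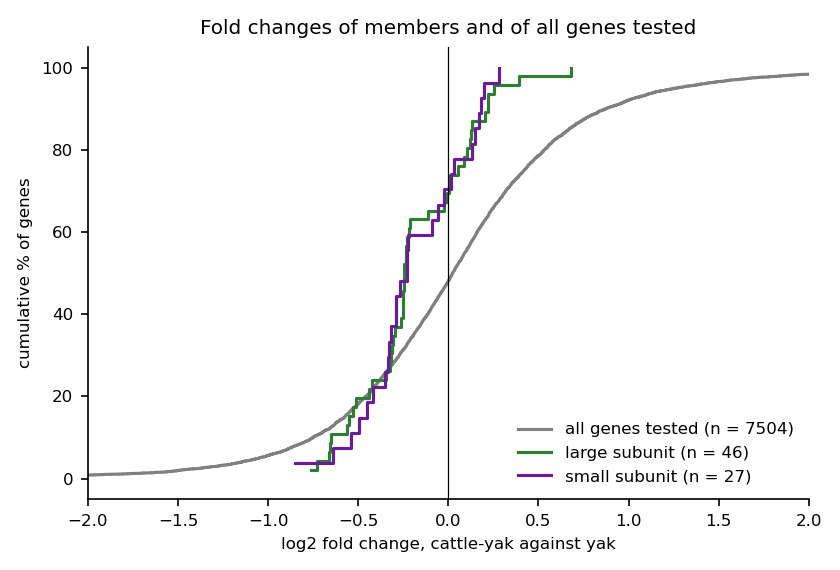
Cumulative percentage of genes (y axis) by log2 fold change (x axis) for 46 large subunit genes, 27 small subunit genes and all 7504 genes tested, with the x axis cut at -2 and 2. At 0 the curves of the large and small subunit stand at 69.6% and 70.4%, against 48.1% for all genes, and both span a narrower range.

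The large and small subunits gave similar counts and medians. Of 46 large subunit genes 4 fell (median log2 fold change -0.25), and of 27 small subunit genes 2 fell (median -0.23). Large subunit genes held 64.77, 66.77 and 64.99% of all member reads in the yak libraries and 67.29, 65.96 and 65.54% in cattle-yak. The groups overlapped, at 65.5% ± 1.10 and 66.3% ± 0.91 (SD, n = 3 each). They differed by 0.75 percentage points, less than the SD of either group. Without MRPS33, the member with the most reads, the difference was 0.10 points. MRPS18A and MRPS30 carry small subunit symbols but are known to sit in the large subunit, and MRPS36 is also known as KGD4, a part of the oxoglutarate dehydrogenase complex. Counting the first 2 as large and leaving MRPS36 out gave a difference of 0.48 points.

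The summed level of the members depended on the scaling. Scaled to the total of counted reads they took 5308, 5406 and 5687 CPM in yak and 5481, 4661 and 5316 CPM in cattle-yak, or 5467 ± 197 and 5153 ± 434 (SD, n = 3 each). On this scale the groups overlapped, and cattle-yak 2 was the lowest. With TMM scaling the sums were 5425, 5789 and 6058 CPM in yak and 5066, 4341 and 5297 CPM in cattle-yak, or 5757 ± 317 and 4902 ± 499 CPM. On that scale every yak library was above every cattle-yak library. Cattle-yak 2 was again the lowest, and 36 of the 73 members had their lowest level in it, against 20.2% of all genes. Without cattle-yak 2 the difference shrank from -314.5 to -68.7 CPM scaled to total counts, and with TMM scaling from -855.8 to -575.7 CPM.

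**Figure D3:**
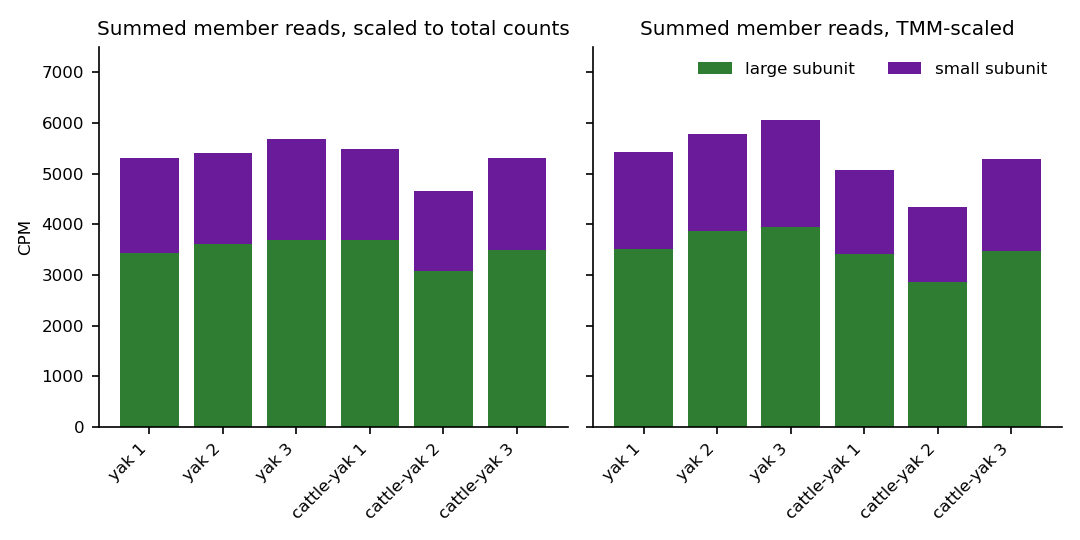
Summed reads of the 75 mitochondrial ribosomal protein genes in each library (stacked bars, large and small subunit symbols), as CPM scaled to total counts on the left and TMM-scaled on the right. On the left the groups overlap, and on the right the 3 yak libraries (5425 to 6058) stand above the 3 cattle-yak libraries (4341 to 5297).

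The stalk of the large subunit, the arm that recruits translation factors, is built from MRPL12 with its anchor MRPL10 and the base protein MRPL11. All 3 genes were lower in each cattle-yak library than in any yak library, at a median of -0.66 on the log2 scale, and 1 of them passed. Such a separation was also found in 22 of the 73 members, these 3 included, and in 16.1% of all genes, of which 6.18% were called as lower. Whether the stalk differs from the other members was not tested. MRPL12 (ENSBGRG00000025552) was at 85.6, 79.6 and 101.5 CPM in yak and 59.0, 40.9 and 60.8 CPM in cattle-yak. It fell by 0.73 on the log2 scale (SE 0.20, edgeR adjusted p = 0.0264). The call was lost without cattle-yak 2 (adjusted p = 0.0825), without yak 1 (0.0544), without yak 3 (0.111) with scaling by library size alone (0.0614) and with assembled transcripts only (0.312). MRPL10 was at 25.2, 33.0 and 26.5 CPM in yak and 15.9, 19.3 and 18.4 CPM in cattle-yak, a log2 fold change of -0.66 ± 0.23 (SE) that did not pass (edgeR adjusted p = 0.0717). MRPL11 was at 191.7, 215.7 and 194.7 CPM in yak and 131.1, 154.7 and 157.3 CPM in cattle-yak, and its log2 fold change of -0.44 ± 0.16 did not pass either (0.0799).

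At the exit of the tunnel through which the new chain leaves the ribosome, MRPL45 ties the large subunit to the inner membrane. It was at 83.9, 89.0 and 101.5 CPM in yak and 66.7, 54.7 and 64.1 CPM in cattle-yak, with no overlap. It fell by 0.56 on the log2 scale (SE 0.17, edgeR adjusted p = 0.0448). This call was the weakest of the 6 and was lost when any 1 library was left out (adjusted p from 0.0544 without cattle-yak 1 to 0.17 without yak 3), with DESeq2 (0.0828) and with limma-voom (0.0535). The other 5 genes counted with the exit region (MRPL17, MRPL22, MRPL23, MRPL24 and MRPL44) did not pass, and the median of the 6 was -0.09. This set is not complete, and MRPL47, which it leaves out, was at -0.25 ± 0.21 and did not pass. MRPL24 was one of the 4 members higher in every cattle-yak library, at 52.4, 55.1 and 57.6 CPM against 44.8, 42.4 and 51.2 CPM (log2 fold change 0.25 ± 0.18, SE, edgeR adjusted p = 0.38).

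The central protuberance is the crest of the large subunit that faces the small one. None of the 6 genes counted with it here, a set that may not be complete, passed, and their median was -0.02. MRPL48 came closest, at 73.5, 61.2 and 59.6 CPM in yak and 52.4, 32.3 and 38.9 CPM in cattle-yak. Its log2 fold change was -0.65 ± 0.21 (SE, edgeR adjusted p = 0.0544), and it passed without cattle-yak 1 (0.0194) and with no filter on low counts (0.0204). MRPL38 was slightly higher in every cattle-yak library, 37.2, 35.4 and 39.9 CPM against 35.2, 34.7 and 33.6 CPM, with a log2 fold change of 0.12 ± 0.18. MRPL40, the tested member with the fewest reads, varied most among yak, from 0.87 to 7.27 CPM, and lay between 5.04 and 5.12 CPM in cattle-yak.

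Among the other large subunit proteins with a bacterial relative, MRPL34 and MRPL28 fell. MRPL34 (ENSBGRG00000024909) was at 147, 146 and 164 CPM in yak and 90.4, 94.1 and 106 CPM in cattle-yak. The gap between the groups was wider than the range within either, and it fell by 0.65 on the log2 scale (SE 0.16, edgeR adjusted p = 0.0165). This call was lost without yak 3 (0.0757) and with assembled transcripts only, where the log2 fold change was -0.29 (0.657). MRPL28 (ENSBGRG00000013150) was at 35.6, 33.0 and 38.9 CPM in yak and 24.4, 15.7 and 23.0 CPM in cattle-yak, lowest in cattle-yak 2. It fell by 0.76 on the log2 scale (SE 0.22, edgeR adjusted p = 0.0401), a call lost with DESeq2 (0.0779), with library size alone (0.088) and without any 1 library but cattle-yak 1 (0.0607 to 0.128: cattle-yak 2, cattle-yak 3, yak 1, yak 2 and yak 3).

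MRPL27, a protein close to the site of peptide bond formation, was at 127.8, 148.5 and 135.5 CPM in yak and 90.4, 79.5 and 111.2 CPM in cattle-yak. Its log2 fold change of -0.55 ± 0.17 (SE) did not pass (edgeR adjusted p = 0.053), but did without cattle-yak 3 (0.0317). Of 27 large subunit genes classed by symbol number as having a bacterial relative 3 fell, with a median of -0.25. Of 19 classed as found only in mitochondria 1 fell (MRPL45), with a median of -0.23. The number put MRPL47, which has a bacterial relative, among these 19.

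MRPL41, a large subunit protein found only in mitochondria, had the highest fold change of the 73. It was at 49.1, 29.95 and 46.8 CPM in yak and 59.3, 53.9 and 88.2 CPM in cattle-yak, higher in every cattle-yak library and highest in cattle-yak 3. The log2 fold change was 0.68 ± 0.24 (SE, edgeR adjusted p = 0.0801). The gene passed with scaling by library size alone (0.0376). It also passed in the fit of reference transcripts only (0.0224), which held the same reads of this gene under another scaling. Without cattle-yak 3 the log2 fold change was 0.42 (0.29) and without yak 2 it was 0.47 (0.279). The other member higher in every cattle-yak library was MRPL55, at 128.0, 129.1 and 148.3 CPM against 123.5, 123.7 and 125.8 CPM (0.12 ± 0.15, adjusted p = 0.655).

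In the small subunit, MRPS28 (ENSBGRG00000018011) gave the largest fall of the 73 genes and the firmest call. It was at 85.6, 91.1 and 101.5 CPM in yak and 48.5, 55.9 and 50.02 CPM in cattle-yak. The lowest yak library was well above the highest cattle-yak library, and the means were 92.8 ± 8.07 and 51.5 ± 3.91 CPM (SD, n = 3 each). The gene fell by 0.85 on the log2 scale (SE 0.17, edgeR adjusted p = 0.00553) and kept its call in the 15 alternatives run for it. Its assembled transcript TALONT000191905 held 95.3% of the gene's reads in yak and 94.4% in cattle-yak. The table gives this transcript the symbol MRPS28 but describes it as an endonuclease-reverse transcriptase, and whether it encodes the ribosomal protein was not tested.

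MRPS36 was at 188, 227 and 227 CPM in yak and 156, 107 and 148 CPM in cattle-yak, again lowest in cattle-yak 2. It fell by 0.64 on the log2 scale (SE 0.18, edgeR adjusted p = 0.0312). That call was lost without cattle-yak 2 (0.0994), yak 2 (0.0941) or yak 3 (0.109) and with library size alone (0.0754). With MRPS36 set aside as KGD4, the gene carrying the symbol MRPS28 was the only other tested small subunit symbol that fell.

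The small subunit gene with the most reads, MRPS33, was at 369, 333 and 407 CPM in yak and 270, 226 and 313 CPM in cattle-yak. The groups did not overlap, but the log2 fold change of -0.45 ± 0.17 (SE) did not pass (edgeR adjusted p = 0.0935). MRPS18B (-0.27 ± 0.16) and MRPS16 (-0.03 ± 0.17), the next ribosomal ones by reads, did not pass either. MRPS9 was lower in every cattle-yak library, at 9.31, 12.2 and 8.64 CPM against 12.6, 16.7 and 14.6 CPM, with a log2 fold change of -0.54 ± 0.29 (0.241) from 180 reads. Of 17 genes with small subunit symbols classed by number as having a bacterial relative 1 fell, with a median of -0.06. Of 9 classed as found only in mitochondria none passed, with a median of -0.29. The symbols put MRPS18A among the 17 and MRPS30 among the 9, though both are known to sit in the large subunit.

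The large subunit genes with the most reads behind them, MRPL14, MRPL21, MRPL11 and MRPL33, did not pass with all their transcripts counted. MRPL14 was at 264, 268 and 297 CPM in yak and 225, 179 and 248 CPM in cattle-yak (log2 fold change -0.35 ± 0.17, SE, edgeR adjusted p = 0.192). Only 65.8% of its reads carry the symbol, and counting those alone gave -0.63, which passed (0.0297), as did assembled transcripts only (-0.67, 0.0292). These 2 fits rest on nearly the same reads, since both leave out the reference transcript ENSBGRT00000017985 (531 reads in yak and 703 in cattle-yak). With reference transcripts only the value was 0.42, which did not pass (0.102). With all transcripts, MRPL14 was at -0.20 with library size alone and -0.22 without cattle-yak 2, and neither passed. MRPL21 (-0.31 ± 0.18) and MRPL33 (-0.11 ± 0.16) did not pass, and the groups overlapped in both. Within a group the coefficient of variation over libraries had a median of 12.5% in yak and 16.7% in cattle-yak. MRPS11 and MRPL46 are neighbouring genes on chromosome 21 in the RefSeq table, and neither passed (-0.42 ± 0.22 and -0.03 ± 0.21).

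**Figure D4:**
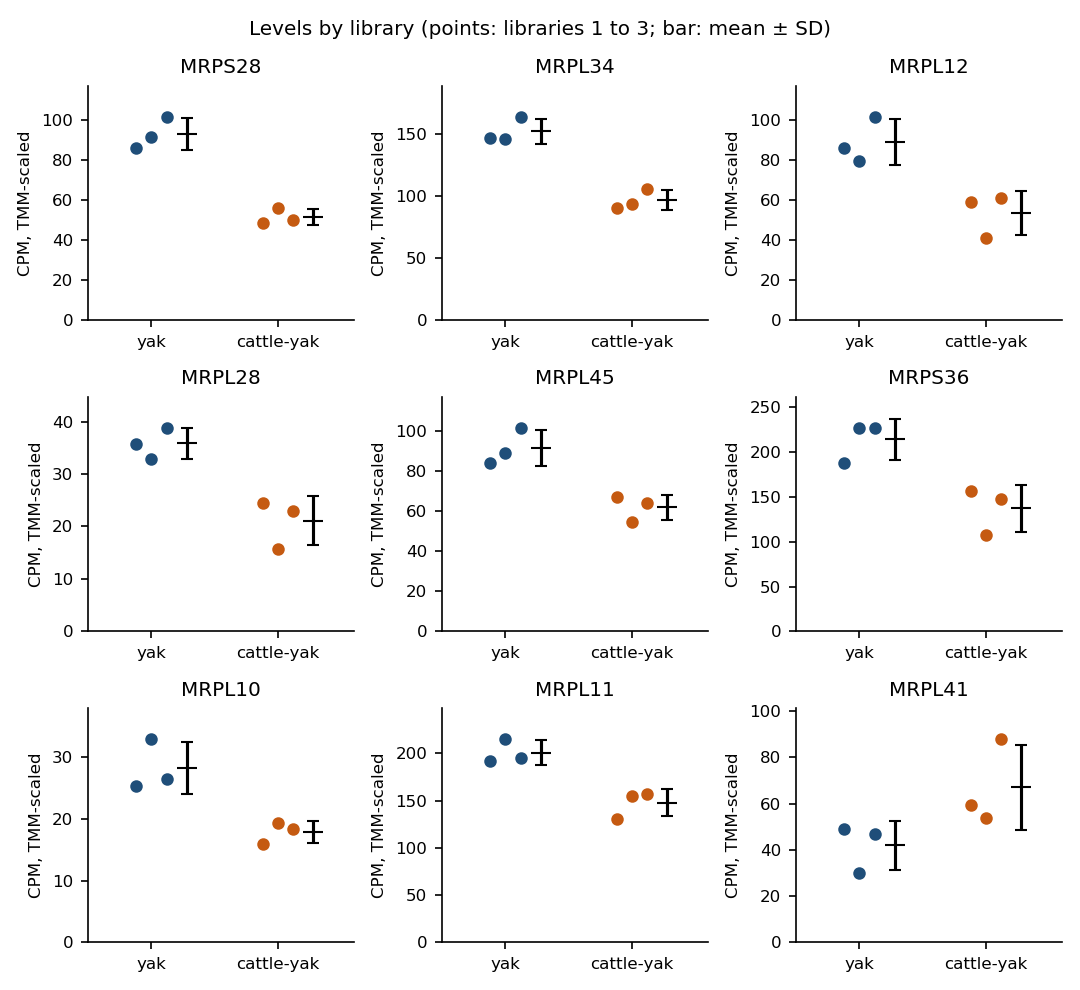
TMM-scaled CPM (y axis, from 0) in each library, with mean ± SD beside the points, for the 6 genes that fell (MRPS28, MRPL34, MRPL12, MRPL28, MRPL45 and MRPS36), for the stalk genes MRPL10 and MRPL11 and for MRPL41, which did not pass. In the first 8 panels every cattle-yak point lies below every yak point, and in the MRPL41 panel every one lies above.

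Long reads separate the transcripts of a gene. The table gave the 75 genes 1040 transcripts, 1 to 35 per gene with a median of 13, either of the yak reference annotation or assembled from the reads. In the 73 genes the leading transcript was a reference one in 39 and an assembled one in 34, and it held a median of 72.7% of the gene's reads. Of the member reads, reference transcripts held 40.9, 40.0 and 41.9% in yak and 43.1, 42.3 and 43.1% in cattle-yak. The cattle-yak libraries were thus the higher ones, while over the whole table the share was 23.9 to 24.5% and 22.3 to 24.6%.

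Fits on 1 kind of transcript gave other fold changes, but each was also scaled to reads of that kind alone. MRPL41, whose 1 transcript is a reference one, went from a log2 fold change of 0.68 to 0.89 on the same reads. How much of the shifts below came from this scaling was not tested. In the 46 members with enough reads of reference transcripts, the median log2 fold change was -0.25 when all transcripts were counted, with 34 below 0. It was 0.01 when only reference transcripts were counted and scaled, with 22 below 0. Of the 6 genes that fell, 4 could be tested on reference transcripts alone and none of these 4 passed (edgeR). The log2 fold change of MRPL12 went from -0.73 to -0.55 (adjusted p = 0.0635) and that of MRPL34 from -0.65 to -0.45 (0.059). MRPL45 went from -0.56 to -0.38 (0.226) and MRPL28 from -0.76 to -0.35 (0.638). MRPS28 and MRPS36 had no tested reference counts and kept their calls on assembled transcripts (0.00503 and 0.029). The fit of reference transcripts called 2 members, both higher in cattle-yak: MRPS14, and MRPL41 on the same reads as in the main test. In the 38 members testable both ways the medians were -0.02 on reference and -0.23 on assembled transcripts, and the reference value was the higher one in 26 (68.4%). Over the 1203 genes of the table testable both ways it was the higher one in 52.1%. On the TMM scale of the gene test, reference transcripts of members summed to 2221 to 2536 CPM in yak and 1836 to 2282 CPM in cattle-yak, which overlap. Assembled ones summed to 3204 to 3522 CPM and 2506 to 3016 CPM, which do not. Cattle-yak carry a cattle genome, so a cattle allele assembled as a transcript of its own and a change of isoform cannot be told apart in these counts.

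Of 147 member transcripts tested, in 71 genes, 13 fell and 3 rose (edgeR adjusted p under 0.05), 10.9% against 18.5% of all 15804 transcripts tested. The share that fell, 8.84%, was close to the background of 8.86%, and the share that rose, 2.04%, was below its background of 9.63%. The 16 came from 12 genes, and 8 of them from genes called in the same direction. Fewer were called when cattle-yak 2 (4), cattle-yak 3 (9), yak 1 (8), yak 2 (6) or yak 3 (5) was left out, with DESeq2 (8) and with library size alone (10). Usage, the division of a gene's reads among its transcripts, could be tested in 41 members and was called in 2, MRPL49 and MRPL58 (4.88%, against 8.62% of 1821 genes).

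MRPL49, a large subunit protein found only in mitochondria, had the plainest shift. Its transcript TALONT000869221 had 0, 2 and 0 reads in yak but 24, 30 and 31 reads in cattle-yak. It was nearly missing from yak, with 2 of 282 reads of the gene, and took 30, 39.5 and 30.4% of them in the cattle-yak libraries. The ratio of the counts, scaled to depth, was 37.1 (exact 95% interval 9.97 to 312, counting error only). This transcript rose by 5.01 ± 0.65 on the log2 scale (SE, edgeR adjusted p = 0.000184) and kept its call in the 10 alternatives run for it. The shares are of the reads of the gene identifier used, which holds 535 of the 651 reads that carry the symbol MRPL49.

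The other main transcript of MRPL49, TALONT000869223, went from 54, 79 and 74 reads in yak to 41, 29 and 48 reads in cattle-yak. Its share fell from 73.2% ± 6.91 to 45.5% ± 6.69 (SD, n = 3 each) without overlap, and its level fell by 0.99 on the log2 scale (SE 0.26, edgeR adjusted p = 0.0186), a call lost without cattle-yak 2 (0.0736), yak 2 (0.0669) or yak 3 (0.062). The usage test gave an adjusted p of 1.21e-05 (edgeR), and 0.000785 or less in its 10 alternatives. The gene as a whole did not pass (-0.33 ± 0.20, adjusted p = 0.316), so the transcript that appeared in cattle-yak came beside a lower level of the other.

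MRPL58, also called ICT1, is a peptide release factor that became a part of the large subunit and frees stalled ribosomes. Its assembled transcript TALONT000080732 had 11, 14 and 14 reads in yak and 37, 23 and 53 reads in cattle-yak, more in every cattle-yak library. Its share went from 6.53% ± 1.57 to 16.1% ± 5.65 (SD, n = 3 each), and its level rose by 1.34 ± 0.35 on the log2 scale (SE, edgeR adjusted p = 0.0173). The reference transcript ENSBGRT00000029438 went from 81.6% to 72.1% of the gene's reads. The usage call (edgeR adjusted p = 0.0103) was lost without cattle-yak 3 (0.0659) and when yak 1 (0.0839) or yak 2 (0.0538) was left out. The call of the transcript was lost without cattle-yak 3 (0.0755), yak 1 (0.0736), yak 2 (0.056) or yak 3 (0.0503). The gene's summed level was 88.1 ± 10.9 and 87.6 ± 2.52 CPM.

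In MRPL14 and MRPS14 the reference transcript gained share instead. The assembled transcript TALONT000561745 of MRPL14 had 245, 288 and 299 reads in yak and 171, 120 and 194 reads in cattle-yak. It fell by 0.96 on the log2 scale (SE 0.20, edgeR adjusted p = 0.00484), kept in its 10 alternatives, and its share went from 43.6% to 28.01%. The reference transcript ENSBGRT00000017985 went from 27.8% to 41.1%, so the leading transcript differed between the groups in each of the libraries. By the read counts, this reference transcript belongs to the gene identifier but does not itself carry the symbol MRPL14. The usage test over 4 transcripts did not pass (edgeR adjusted p = 0.238), but did when transcripts under 10% of the gene were left out (0.0149) and without cattle-yak 3 (0.0409).

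The reference transcript of MRPS14, ENSBGRT00000009094, took 66.7, 53.8 and 59.1% of that gene's reads in the yak libraries and 71.7, 88.0 and 75.9% in cattle-yak. Its assembled partner TALONT000289534 held 29.3% and 12.8% on average. The groups did not overlap in either, and the usage test missed the threshold (edgeR adjusted p = 0.0568). It passed with no minimum share (0.0405).

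MRPS5, chosen after its values were seen, differed among the yak. Its assembled transcript TALONT001051538 had 48, 58 and 1 reads in yak 1, yak 2 and yak 3, and 0 in each cattle-yak library. It took 32.4 and 33.3% of the gene's reads in yak 1 and yak 2, but 0.47% in yak 3. None of 480 cattle-yak reads of the gene came from it, which allows a share of up to 0.625%. With 3 counts over the cattle-yak group taken as the floor, its level was at least 40.8-fold lower, a bound that pools the yak and rests on yak 1 and yak 2. The low count filter left this transcript out, and with no filter its test did not pass (log2 fold change -8.27, edgeR adjusted p = 0.0501).

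The reference transcript of MRPS5, ENSBGRT00000049650, mirrored it, with 36.5, 42.5 and 72.8% of reads in the yak libraries and 63.9, 49.5 and 61.0% in cattle-yak. Yak 3 was thus like the cattle-yak libraries in the division between these transcripts. The usage test did not pass with all libraries (edgeR adjusted p = 0.126) and gave 1.33e-05 without yak 3. Another transcript of MRPS5, TALONT001051894, had 5, 6 and 6 reads in yak but 20, 16 and 15 reads in the hybrid and rose by 1.39 ± 0.40 on the log2 scale (SE, edgeR adjusted p = 0.0268), a call lost without any 1 library but cattle-yak 3 (0.064 without cattle-yak 2 to 0.099 without yak 1) and with DESeq2 (0.127).

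**Figure D5:**
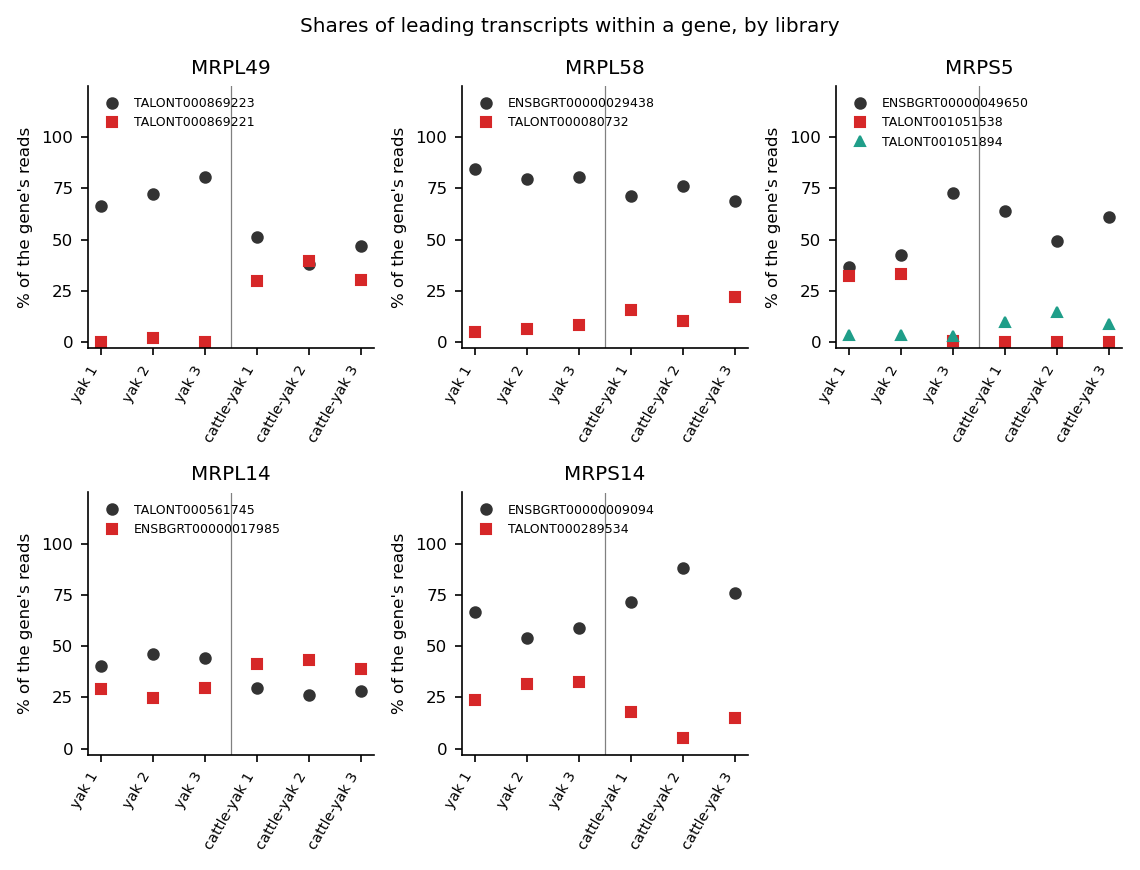
Percentage of a gene's reads (y axis) held by its leading transcripts in each library (x axis, the vertical line parts yak from cattle-yak) for MRPL49, MRPL58, MRPS5, MRPL14 and MRPS14. TALONT000869221 of MRPL49 is at 0 to 1.83% in yak and 30 to 39.5% in cattle-yak, and TALONT001051538 of MRPS5 is at 32.4 and 33.3% in yak 1 and yak 2 but at 0.47% in yak 3.

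Transcripts confined to 1 group were few. Of 487 member transcripts with at least 9 reads, 1 had all its reads in cattle-yak and 1 all in yak, against 1.37% and 0.335% of the 69828 such transcripts of the table. The first was TALONT000411471 of MRPL18, with 8, 6 and 4 reads in cattle-yak and 0 in each yak library. None of 669 yak reads of MRPL18 allows a share of up to 0.448%, and with 3 counts over the yak group taken as the floor it was at least 5.24-fold higher. The second was TALONT001051538 of MRPS5, described above.

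Among the remaining transcripts that fell, 4 belonged to MRPS36 and 1 each to MRPL12, MRPL28, MRPL34 and MRPS28, genes that fell as a whole. Of 10 alternatives each, the transcript of MRPS28 kept its call in 10, MRPL34 in 7, MRPL12 in 6 and MRPL28 in 1. The 4 of MRPS36 kept theirs in 7, 4, 1 and 0. The other transcripts that fell belonged to MRPL14, MRPL49, MRPL27, MRPL48 and MRPL55. The reference transcript of MRPL27 (ENSBGRT00000011232) fell by 0.64 ± 0.21 and the main transcript of MRPL48 (TALONT000192188) by 0.79 ± 0.24 on the log2 scale (SE, edgeR adjusted p = 0.0443 and 0.0337). In MRPL55 a minor transcript, TALONT001014338, fell from 6.17% to 2.45% of the gene's reads (0.0447) while the gene did not fall. These 3 calls were each lost without cattle-yak 2 or without yak 3, among other settings.

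The other genes of mitochondrial translation were read from the same fit. In 6 lists with 95 genes, 86 were matched and 71 tested, of which none rose, 3 fell and 68 did not pass (edgeR adjusted p under 0.05), with 53 below 0 and a median log2 fold change of -0.19. Over all genes tested 12.6% were called, 6.18% as lower, 48.1% were below 0 and the median was 0.02, so the called share of these lists was not above the background. METTL15, which methylates the small ribosomal RNA of mitochondria, was the 1 of 19 assembly factors that fell, at 5.65, 8.13 and 8.83 CPM in yak and 0.39, 1.57 and 3.24 CPM in cattle-yak. It fell by 2.06 on the log2 scale (SE 0.53, edgeR adjusted p = 0.0215), on 66 reads in all, and lost its call without cattle-yak 2 (0.0561), yak 2 (0.0765) or yak 3 (0.0883). The asparaginyl-tRNA synthetase NARS2 was the 1 of 14 mitochondrial tRNA synthetases that fell, at 11.3, 16.7 and 17.7 CPM in yak and 6.59, 6.69 and 7.56 CPM in cattle-yak. It fell by 1.12 on the log2 scale (SE 0.30, adjusted p = 0.0278), and the call was lost without cattle-yak 1 (0.0548), cattle-yak 2 (0.065), yak 2 (0.0852) or yak 3 (0.104), with DESeq2 (0.0605) and with library size alone (0.0502).

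MTRES1, a mitochondrial RNA-binding protein that sustains transcription under stress, was the 1 of 14 genes of mitochondrial DNA expression that fell. It was at 29.1, 31.7 and 38.0 CPM in yak and 18.2, 22.4 and 16.2 CPM in cattle-yak, and fell by 0.80 on the log2 scale (SE 0.22, edgeR adjusted p = 0.0329). The call was lost without cattle-yak 1 (0.0631), cattle-yak 3 (0.0934), yak 2 (0.0698) or yak 3 (0.131), with DESeq2 (0.0683) and with library size alone (0.0815). None of 11 translation factors passed (TUFM, the elongation factor with the most reads, -0.09 ± 0.19), nor any of 4 mitoribosomal proteins with other names (AURKAIP1, 0.01 ± 0.18). Over the 6 lists no gene was called without yak 2 or without yak 3.

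Of 13 protein products of mitochondrial DNA, which these ribosomes translate, 9 were matched and MT-ND4L, MT-ND6, MT-CYB and MT-ATP8 were not. None of the 9 passed (MT-CO1, -0.15 ± 0.24), with 8 below 0 and a median of -0.11. MT-ND5 came closest, at -0.99 ± 0.29 (SE, edgeR adjusted p = 0.0506), though its groups overlapped. The 9 summed to 17588, 20473 and 18194 CPM in yak and 13905, 23129 and 14622 CPM in cattle-yak. Cattle-yak 2, the library lowest in mitochondrial ribosomal protein reads, was thus the highest of the 6 in these transcripts, while the other 2 cattle-yak libraries were the lowest.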

How the data were processed

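Full-length cDNA of 6 longissimus dorsi samples (3 yak, 3 cattle-yak) was sequenced on nanopores. Whole-number counts of reads for every transcript, and CPM beside them, were deposited by the authors in 1 table, and dividing the counts by each library's total gave those CPM to within 0.005. Per the submitters' processing notes, fastp, minimap2 and GSNAP were used. The sources used here do not give versions, the genome build, the counting step or strandedness. Counts of gene copies or overlapping genes may be shared. The table held 179856 transcripts; 132 lines without values and 61 transcripts without a gene identifier (at most 0.00249% of a library's counts) were left out.

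Transcript counts were summed by gene identifier and fitted over the whole table (edgeR 4.0.16, R 4.3.3) after filterByExpr, with TMM and the robust quasi-likelihood test. Genes, transcripts and usage (diffSpliceDGE, transcripts with at least 5% of a gene's reads) were each adjusted by Benjamini-Hochberg over all features tested, with a threshold of 0.05. Gene CPM in the report are TMM-scaled; SE is the log2 fold change over the square root of F. The fits were tested on simulated data. DESeq2 1.42.0, limma-voom (limma 3.58.1), another scaling, other filters, a block for replicate number and leaving out each library were alternatives. PCR reads carry no molecular identifiers, so intervals and floors cover counting error only.

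The member genes and the lists were chosen with earlier results of these data known. Named were members called at gene, transcript or usage level, the 4 large and 4 small subunit members with most reads, up to 4 uncalled members per direction with the largest change and no overlap, and called members (otherwise the one with most reads) of each pathway list. Of the 75 symbols, 73 matched the RefSeq table; its MRPL15, MRPL36 and MRPS27 are not analysed here. The name rests on under 50% of the gene's reads in 4 tested members (MRPL17, MRPS18A, MRPL35 and MRPL1), and 8 symbols were spread over several identifiers.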

Additional observations from a re-analysis of the deposited data

How the results depend on the processing

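Of 671 values of named genes, transcripts and usage tests under the alternatives, 495 kept direction and side of the threshold, 136 lost their call, 15 gained one and 25 changed sign. Of 27 called results, 22 lost their call somewhere; the causes were not tested. None of the 25 values of changed sign passed, though MRPL14 passed below 0 with assembled transcripts only and with transcripts carrying the symbol. With reference transcripts only, MRPL14 went to 0.42, MRPL21 to 0.24, MRPS16 to 0.17, MRPL58 to 0.036, MRPS5 to 0.029 and TUFM to 0.0038. With library size alone, MRPL33 was at 0.033, MRPS16 at 0.12, MRPL58 at 0.14, TUFM at 0.065 and MT-CO1 at 0.0047. With a mean of at least 10 CPM, MRPS16 was at 0.0087 and MRPL58 at 0.026. With assembled transcripts only, MRPL58 was at 0.56 and AURKAIP1 at -0.026, which was at -0.11 with no low count filter. Leaving out 1 library gave -0.19 to 0.056 for MRPS16, -0.13 to 0.024 for MRPL58, -0.12 to 0.077 for AURKAIP1, -0.29 to 0.057 for TUFM and -0.47 to 0.031 for MT-CO1.

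Counts of calls moved by over 1.5 times as follows. Library size alone called 3 mitochondrial ribosomal protein genes (MRPL41 higher), 10 of their transcripts and 1 gene of the pathway lists. Reference transcripts only called 2 of these genes and 194 genes in all (fewer genes tested). DESeq2 called 8 member transcripts. Usage was called in 58 genes with the Simes method, 81 with a minimum share of 10% and 308, 4 of them members, with no minimum. The TMM-scaled level difference was -855.8 CPM, against -314.5 CPM scaled to total counts. Leaving out 1 library gave 544 to 987 changed genes, 1 to 7 of them members, and 2053 to 3004 transcripts, 4 to 13 of members. It gave 71 to 145 genes with changed usage, 1 to 3 of them members, and 0 to 4 pathway genes. The level difference ranged from -478.6 to -68.7 CPM and the large subunit share difference from 0.24 to 1.38 points.

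Replicate numbers gave no sign of pairing (correlations of deviations -0.04, -0.01 and 0.02 for equal numbers). With 3 libraries a group this check cannot exclude pairing or a shared batch. With a replicate block 890 genes were called, 7 of them members (MRPL41 and MRPL48 gained, MRPL45 lost), with 10 member transcripts and usage in 116 genes, 2 of them members. With 70 to 4690 reads per tested member and 3 samples a group, the SE printed with each fold change limits what was detectable.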
